A study of Mus musculus with 16 samples.

Results

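Cyp2r1 encodes the microsomal vitamin D 25-hydroxylase of liver. It is described here with the other core genes of vitamin D handling, Gc, Vdr, Cyp24a1 and Cyp27b1, in livers of mice fed a maple syrup extract (MSE) or a normal diet. The 5 genes were taken by symbol from the array's platform annotation, using probe sets that name 1 gene, and 4 of them were measured among the 18194 genes of the array, with 6 probe sets in all. Gc was not analysed here. Cyp2r1 was chosen because its difference between the diets had the smallest p of all genes in an earlier analysis of these data, so all differences of the described genes between diets are given as descriptions, without a test.

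The mice were male KK-Ay, an obese strain with the yellow agouti allele that develops type 2 diabetes, so the normal-diet mice share that background and are no healthy control. They were 11 weeks old. The 8 MSE-diet mice were pair-fed an AIN-93G diet holding 0.1% extract for 43 days, and the 8 normal-diet mice the same diet without it. All 16 went 16 h without food before liver was taken, and each array held the liver RNA of 1 mouse.

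Vitamin D made in skin or eaten is first hydroxylated at carbon 25 in liver, mainly by Cyp2r1. The product, 25-hydroxyvitamin D, travels in blood on the vitamin D binding protein encoded by Gc. Kidney Cyp27b1 turns it into the active hormone calcitriol, Cyp24a1 breaks both forms down, and the receptor Vdr pairs with a retinoid X receptor to switch on target genes. In mouse liver, fasting is known to lower Cyp2r1 through the coactivator PGC-1alpha, the product of Ppargc1a, and the estrogen-related receptor alpha, the product of Esrra.

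The promoter of Cyp2r1 is shown because this is the gene chosen for description. Whether the regulators above act on its transcription in these mice was not tested. RefSeq places the window at chr7:114562923-114563222 of GRCm38.p6, on the minus strand, from 250 bases before to 50 bases after the gene's start. Capitals mark the CCAAT matches.
Cyp2r1 promoter: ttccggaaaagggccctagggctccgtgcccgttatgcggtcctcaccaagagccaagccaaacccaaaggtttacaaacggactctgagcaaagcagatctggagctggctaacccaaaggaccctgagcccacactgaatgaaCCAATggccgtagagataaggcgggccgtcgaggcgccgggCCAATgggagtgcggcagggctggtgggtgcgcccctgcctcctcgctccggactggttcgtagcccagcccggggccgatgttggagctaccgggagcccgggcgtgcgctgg
The window is GC-rich, at 64.3% against a median of 52.7% over the 32851 promoter windows of the table. CCAAT was found at 105 and 64 bases before the start on the gene's own strand, and 37.4% of all windows hold it on either strand. The GC box GGGCGG (35.7% of windows), the estrogen-related receptor motif AAGGTCA (4.72%) and the vitamin D response element, a pair of AGGTCA units with 3 bases between them (0.00609%), searched on both strands, had no match in it. Part of AAGGTCA is also the repeated unit of the last motif. The Vdr window held 3 GC boxes and no CCAAT, and the Cyp27b1 window held 1 CCAAT on the opposite strand and no GC box. These matches describe letters only.

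The deposited values vary very little between mice. The median SD of a gene within diets was 5.6 millionths of a log2 unit, so differences are given in millionths of a log2 unit and in SDs within diets (the difference between diet means over the pooled SD), and are not fold changes of a transcript. The number of pairs made of 1 MSE mouse and 1 normal-diet mouse, of 64, in which the MSE mouse was lower or higher is given beside them. Array medians lay between 6.0387 and 6.0388 log2 units. The array of MSE replicate 6 stood apart, with a median at -103.0 millionths from the mean of all medians, while the other 15 arrays lay from -7.8 to 35.6 millionths around it.

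The liver gene for vitamin D 25-hydroxylation was lower in MSE-fed mice. The only Cyp2r1 probe set averaged 6.83 log2 units over the 16 arrays. As deviations from that mean, in millionths of a log2 unit, MSE replicates 1 to 8 had -103.9, -68.2, -161.5, -80.1, -87.8, -163.7, -5.1 and -81.2. Normal-diet replicates 1 to 8 had 84.5, -29.9, 138.8, 129.7, 95.2, 72.9, 165.3 and 94.8. All MSE mice lay below the common mean and 7 of 8 normal-diet mice above it, and the single overlap was between MSE replicate 7 and normal-diet replicate 2. The diet means were -93.93 ± 51.38 with MSE and 93.93 ± 58.85 on the normal diet (SD, n = 8 each). The difference was -187.85 millionths of a log2 unit, or -3.40 SDs within diets, and the MSE mouse was the lower of the pair in 63 of the 64. Of all genes, 0.0605% were lower with MSE in at least 63 pairs, and 0.0275% in all 64 (0.0220% were higher in all 64). Since the gene was picked on this contrast, nothing is read from that share. Because whole liver was profiled, fewer Cyp2r1-expressing cells and less Cyp2r1 RNA per cell cannot be told apart.

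**Figure D1:**
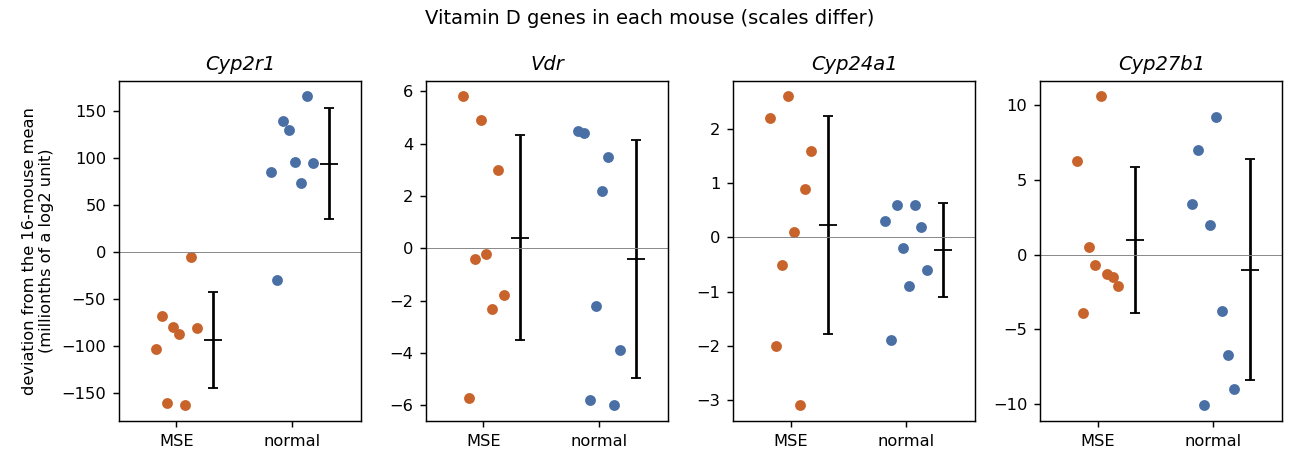
Each point is 1 mouse, MSE diet left and normal diet right, as the deviation of the gene's probe set from its mean over 16 mice in millionths of a log2 unit, with bars for the mean ± SD (n = 8 each) and a separate scale in each panel. Cyp2r1 separates the diets but for 1 pair of mice, at -5.1 with MSE and -29.9 on the normal diet. The ranges of Vdr, Cyp24a1 and Cyp27b1 overlap. For Cyp24a1 the MSE mice spread beyond both ends of the normal-diet range.

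Cyp2r1 combined a large difference with a wide spread. Its SD within diets, 55.24 millionths of a log2 unit, was larger than that of 92.5% of genes, and 1358 genes varied more. Its absolute difference was exceeded by 371 of 18194 genes, and its absolute difference in SDs by 0 genes. Quantile normalization, which replaces each value by the mean of its rank, left the gene lower with MSE but at -1.40 SDs, as the SD rose to 100.18 millionths while the difference was -140.67. Subtracting array medians gave -2.90 SDs. Leaving out normal-diet replicate 2, the lowest mouse of its diet, gave -4.67 SDs, and leaving out MSE replicate 6, the array with the low median, gave -3.33 SDs. In the authors' deposited table Cyp2r1 has an estimated false discovery rate of 0 for lower and 1 for higher expression with MSE. Like the rank above, that rate comes from the contrast on which the gene was picked, so neither adds support. Limma, run here on the same values, called 0 of all genes at an adjusted p under 0.05.

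**Figure D2:**
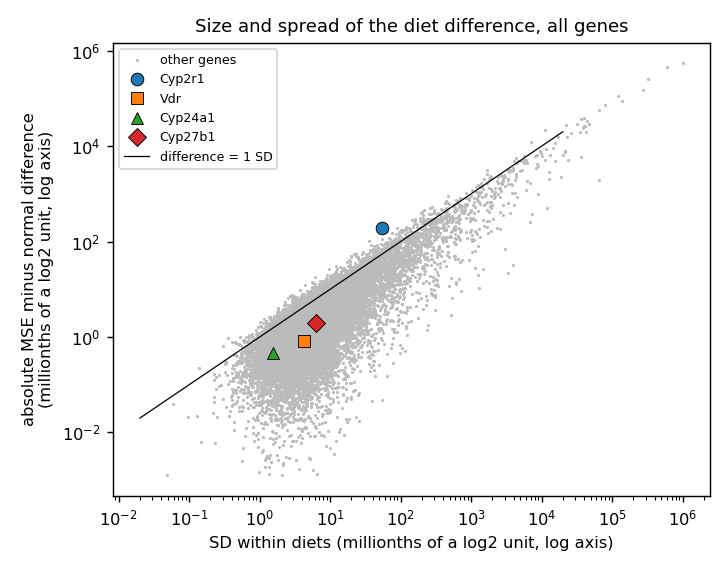
Each point is 1 gene, with its SD within diets on the x axis and its absolute MSE minus normal difference on the y axis, both in millionths of a log2 unit on log axes; the line marks a difference of 1 SD. Cyp2r1 lies at an SD of 55.24 and a difference of -187.85 before its sign is dropped, above the line, and the other described genes lie below it.

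**Figure D3:**
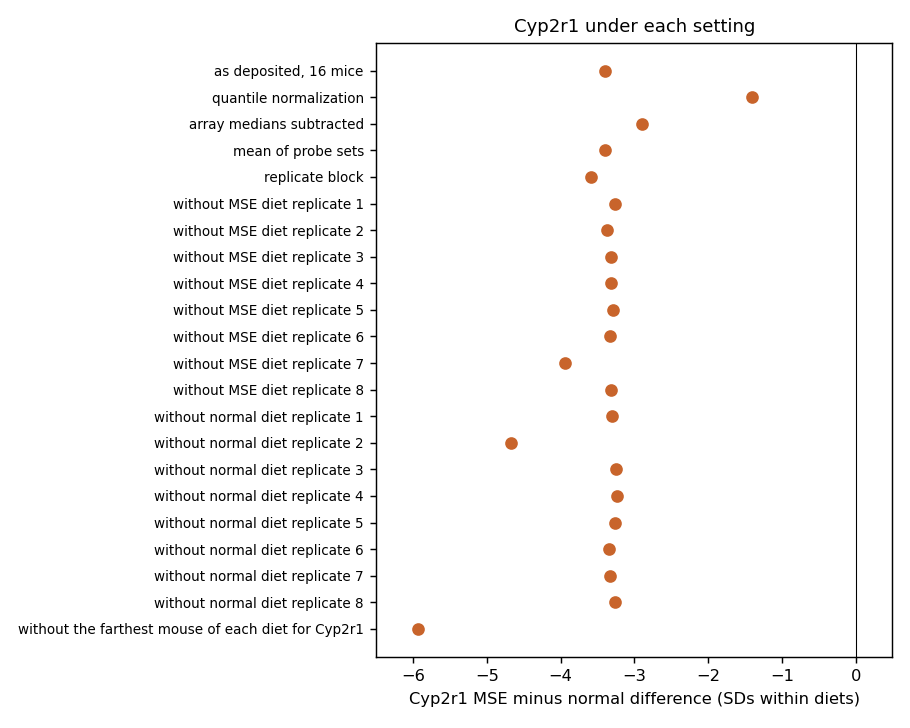
Each point is the Cyp2r1 MSE minus normal difference in SDs within diets under 1 setting. All points lie below 0, between -5.94 without the farthest mouse of each diet and -1.40 after quantile normalization.

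The receptor gene Vdr overlapped between the diets over nearly its whole range. Its probe set averaged 5.93 log2 units. MSE mice ran from -5.70 over a median of -0.32 to 5.82 millionths of a log2 unit around that mean, and normal-diet mice from -6.05 over a median of -0.02 to 4.49. High and low mice occurred on both diets. The means were 0.42 ± 3.91 with MSE and -0.42 ± 4.55 on the normal diet (SD, n = 8 each), a difference of 0.20 SDs with the MSE mouse higher in 38 of 64 pairs. The other Vdr probe set, averaging 5.53 log2 units, went the other way by -0.21 SDs.

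The inactivating enzyme gene Cyp24a1, itself a strongly induced target of Vdr, also overlapped between diets. Its probe set averaged 6.03 log2 units. MSE mice ran from -3.05 over a median of 0.49 to 2.62 millionths of a log2 unit, and normal-diet mice from -1.88 over a median of 0.01 to 0.63. The MSE mice were spread more widely, with an SD of 2.00 against 0.86 on the normal diet (n = 8 each), and the difference in means was 0.29 SDs with the MSE mouse higher in 39 of 64 pairs. The other Cyp24a1 probe set, averaging 5.48 log2 units, differed by -0.12 SDs.

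The activating enzyme gene Cyp27b1, which works mainly in kidney, showed the same overlap. Its probe set averaged 5.49 log2 units. MSE mice ran from -3.91 over a median of -1.0 to 10.64 millionths of a log2 unit, and normal-diet mice from -10.09 over a median of -0.88 to 9.19. The medians lie within the spread of either diet. The means were 0.99 ± 4.92 with MSE and -0.99 ± 7.39 on the normal diet (SD, n = 8 each), a difference of 0.31 SDs with the MSE mouse higher in 37 of 64 pairs.

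The directions of Vdr, Cyp24a1 and Cyp27b1 are not settled by these values. After quantile normalization they were -0.72, -0.26 and -0.21 SDs in that order. Subtracting array medians adds 13.1 millionths of a log2 unit to each gene's difference (MSE minus normal), which is more than any of their differences. Nearly all of that shift comes from the low median of 1 array, MSE replicate 6, at -103.0 millionths. As deposited, the median difference over all genes was -0.0838 millionths. The 3 probe sets were also dim. The files hold no detection calls, but 27 control probe sets for bacterial genes averaged from 5.16 to 6.01 log2 units, and Vdr and Cyp27b1 lay within that range and Cyp24a1 at 6.03, just above it. Whether RNA for those controls was added is not given in the sources used here. Cyp2r1 at 6.83 log2 units was brighter than 77.0% of probe sets. In the authors' deposited table the estimated false discovery rates of the 5 probe sets of Vdr, Cyp24a1 and Cyp27b1 lie between 1.03 and 1.28 in both directions. These estimates were thus not capped at 1.

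Measures of array and RNA quality differed between diets by at most 0.69 SDs. The difference between the 3' and 5' control probe sets of Gapdh averaged 3.5 ± 13.2 millionths of a log2 unit with MSE and -3.5 ± 13.9 on the normal diet around its mean (SD, n = 8 each), or 0.52 SDs higher. That of beta-actin was 0.44 SDs higher, the 18S RNA 3' probe set 0.69 SDs higher and the array median differed by -0.43 SDs. Their part in the Cyp2r1 difference was not tested.

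No gene of the wider vitamin D pathway passed the test between diets. In 6 lists of enzymes, carriers, receptor partners, targets, mineral control and fasting regulators, 59 genes besides the described ones were measured, 25 higher and 33 lower with MSE and 1 equal, with a median of -0.04 SDs against -0.02 SDs over all genes. Limma called 0 of the 59 at an adjusted p under 0.05, as for 0% of all genes. At an unadjusted p under 0.05 there were 2 higher and 1 lower, or 5.08%, against 6.66% of all genes (2.59% higher and 4.07% lower).

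Among the enzymes and their partners, 3 of 5 measured genes were higher and 2 lower. Cyp27a1, a mitochondrial sterol hydroxylase that can also 25-hydroxylate vitamin D, differed by -1.55 SDs and was lower in 57 of 64 pairs (limma unadjusted p 0.00631, adjusted 0.568). Its other, dimmer probe set went the other way, and quantile normalization left the main one at -0.30 SDs. Sc5d, which makes the precursor 7-dehydrocholesterol, was 1.10 SDs higher (unadjusted p 0.0396, adjusted 0.723) and -0.06 SDs after quantile normalization. Fdx1, the ferredoxin that feeds electrons to mitochondrial P450 enzymes, was 0.83 SDs higher and as far below 0, at -0.83 SDs, after quantile normalization. Cyp11a1, the side-chain cleavage enzyme, differed by 0.15 SDs.

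Carriers and uptake genes showed small differences, with 4 of 8 higher, 3 lower and 1 equal and a median of 0.02 SDs. The uptake receptor gene Lrp2 differed by -0.61 SDs, its partner Cubn by 0.08 SDs and the endocytic adaptor gene Dab2 by 0.42 SDs. Afm, a plasma protein gene of the same family as Gc, differed by 0.47 SDs. None of the 8 had an unadjusted p under 0.05.

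Receptor partners and cofactors were lower in 8 of 12 genes, with a median of -0.14 SDs and 0 at an unadjusted p under 0.05. The coactivator gene Ncoa2 differed by -0.72 SDs, Pdia3, a protein disulfide isomerase also known to bind calcitriol at membranes, by -0.57 SDs, the retinoid X receptor gene Rxrb by 0.41 SDs and the remodelling ATPase gene Smarca4 by -0.37 SDs. Quantile normalization turned 7 of the 12, Ncoa2, Pdia3 and Smarca4 among them.

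Known targets of Vdr were higher in 6 and lower in 8 of 14 measured genes, with a median of -0.09 SDs. Lrp5, a Wnt co-receptor, was 1.24 SDs higher in 52 of 64 pairs and the only one with an unadjusted p under 0.05 (0.0224, adjusted 0.685). Fgf23, a phosphate-lowering hormone gene of bone, was 0.85 SDs higher, S100g, a calcium-binding protein gene of gut, -0.78 SDs and the calcium pump gene Atp2b1 -0.70 SDs. Atp2b1 turned to 1.22 SDs after quantile normalization and Fgf23 to -0.04 SDs. The Lrp5 probe set was dim, at 6.03 log2 units, just above the range of the bacterial controls (5.16 to 6.01). S100g, at 5.5, lay within that range, while Fgf23 averaged 6.26 and Atp2b1 7.59.

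Genes of calcium and phosphate control were higher in 8 of 11, with a median of 0.16 SDs and 0 at an unadjusted p under 0.05. Apart from Fgf23, the larger differences were in the Fgf23 co-receptor gene Kl (-0.89 SDs), the calcium sensor gene Casr (0.64 SDs) and the parathyroid hormone gene Pth (-0.57 SDs). These act mainly outside liver, and their probe sets averaged from 5.51 to 6.26 log2 units, within or a little above the range of the bacterial controls.

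**Figure D4:**
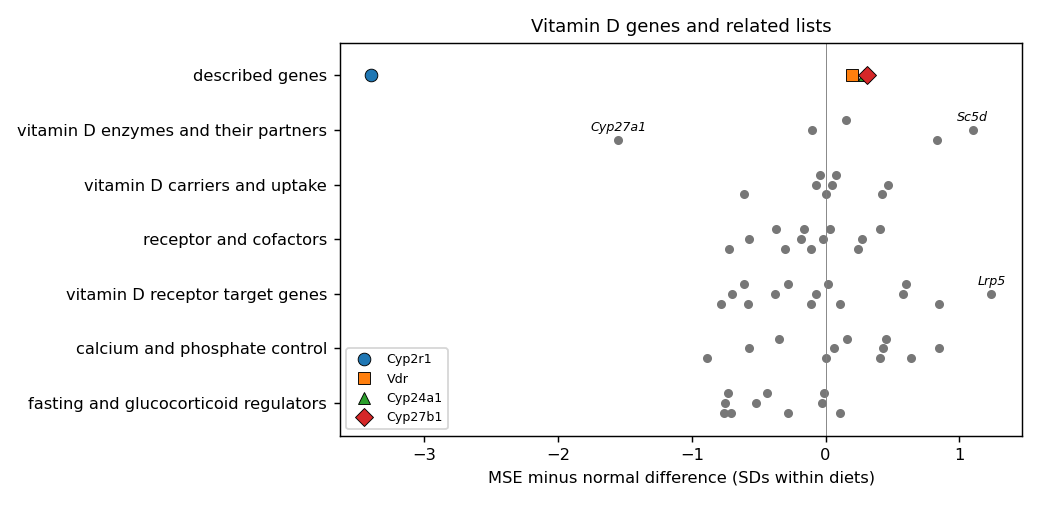
Each point is 1 gene, placed by its MSE minus normal difference in SDs within diets, with the described genes in the top row and related genes in the 6 rows below. Cyp2r1 lies at -3.40 SDs, Cyp27a1 follows at -1.55, and the highest related gene is Lrp5 at 1.24.

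Regulators of the fasting response were lower in 9 of 10 genes, with a median of -0.48 SDs, yet 0 had an unadjusted p under 0.05. The glucocorticoid target Fkbp5 differed by -0.76 SDs, the transcription factor gene Foxo1 by -0.75 SDs, Pck1, an enzyme of glucose production, by -0.73 SDs and Esrra by -0.71 SDs. The directions of Foxo1 and Esrra turned after quantile normalization, to 0.13 and 0.65 SDs. Pck1 had no spread left after it, and turned to 0.16 SDs after array medians were subtracted. Fkbp5 stayed lower under both settings, at -0.74 and -0.76 SDs. Of 3 probe sets each, 2 were lower for Pck1 and 2 for Fkbp5. Ppargc1a, named after its values were seen, differed by -0.52 SDs and was lower in 39 of 64 pairs, with all 5 of its probe sets lower. Only 1 of the 2 Esrra probe sets was lower, and after array medians were subtracted Esrra was at 0.0 SDs. The part of either gene in the Cyp2r1 difference was not tested.

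Within the normal diet, the mouse with the lowest Cyp2r1 had the highest Ppargc1a. Replicate 2 was at -29.9 millionths of a log2 unit for Cyp2r1 and at 741.8 for Ppargc1a, while the MSE mouse highest for Ppargc1a, replicate 4, was at 367.7. In 4 of the 5 Ppargc1a probe sets this normal-diet mouse was the highest of all 16, and in the other one it ranked 2, after normal-diet replicate 8. Replicate 8, however, was at 596.7 for Ppargc1a and at 94.8 for Cyp2r1, near the middle of its diet. Over the mice of 1 diet, Cyp2r1 and Ppargc1a had a Pearson r of 0.40 with MSE (exact two-sided permutation p 0.327, n = 8) and of -0.63 on the normal diet (exact permutation p 0.104, n = 8). Spearman's rho was 0.40 (exact permutation p 0.327) with MSE and -0.43 (exact permutation p 0.299) on the normal diet. Over all 16 mice, after each diet's mean was subtracted, r was -0.24. That is percentile 16.3 among the r of all genes with Cyp2r1, well inside their range. Without replicates 2 and 7, the farthest from the median of Cyp2r1, the normal-diet r was -0.22 (exact permutation p 0.721), so the relation rests on those mice. Without MSE replicates 6 and 7 the MSE r was 0.66 (exact permutation p 0.140). After quantile normalization r was 0.75 with MSE (exact permutation p 0.0357, not adjusted over the relations) and -0.01 on the normal diet (exact permutation p 1).

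**Figure D5:**
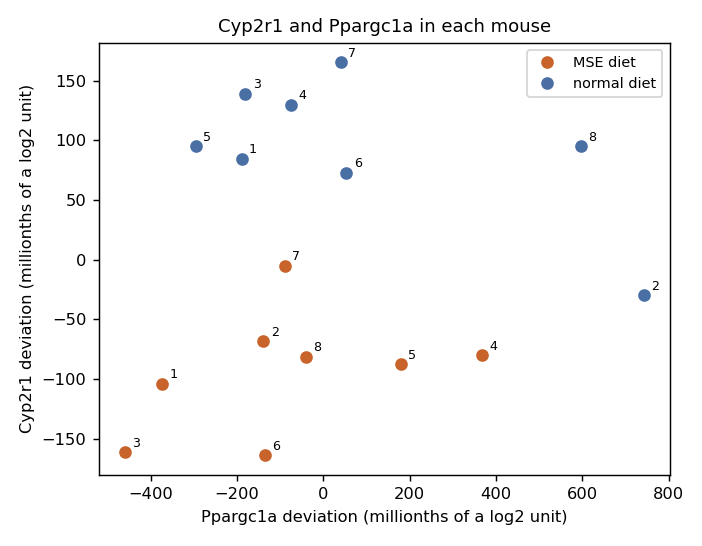
Each point is 1 mouse, numbered by replicate and coloured by diet, with Ppargc1a on the x axis and Cyp2r1 on the y axis as deviations from their 16-mouse means in millionths of a log2 unit. Normal-diet replicate 2 stands at 741.8 and -29.9, and the MSE mice spread from -459.3 to 367.7 on the x axis with Cyp2r1 below 0 throughout.

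Cyp2r1 was also set against the other described genes within each diet, a measure that does not use the diet difference. In MSE mice r was 0.21 with Vdr (exact permutation p 0.619), 0.43 with Cyp24a1 (0.295) and -0.12 with Cyp27b1 (exact permutation p 0.773). Their Spearman's rho was 0.10 (exact permutation p 0.840), 0.33 (0.428) and -0.52 (0.197). In normal-diet mice r was -0.76 with Vdr (exact permutation p 0.00893, rho -0.86 with p 0.0107), 0.70 with Cyp24a1 (exact permutation p 0.0590, rho 0.19 with p 0.665) and -0.55 with Cyp27b1 (exact permutation p 0.149, rho -0.48 with p 0.243). Over the 8 relations computed, Ppargc1a included, the smallest adjusted value was 0.0714 for r and 0.0857 for rho, both for Vdr on the normal diet, so no relation passed. For Vdr that r was -0.80 (exact permutation p 0.0653) without normal-diet replicates 2 and 7, but 0.32 after quantile normalization and 0.50 after subtracting array medians. For Cyp24a1 it was 0.04 without those mice.

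The genes most like Cyp2r1 across mice were found from all 18193 others by Pearson's r over the 16 mice after each diet's mean was subtracted. Their r had a 5th percentile of -0.40 and a 95th of 0.42. The genes named below were picked on that r. Their r within each diet, or without some mice, reuses the same mice and is no separate support. The highest were Slc18a2 (r = 0.89), the vesicular monoamine transporter, Antxr2 (0.79), an anthrax toxin receptor, Slc35f6 (0.79), the cell cycle kinase gene Cdk2 (0.78) and the lysosomal protease gene Ctsb (0.78). All 5 stayed positive without the farthest mouse of each diet (r from 0.53 to 0.85), while after quantile normalization r was 0.48 for Slc35f6, 0.31 for Cdk2, 0.02 for Ctsb and -0.21 for Antxr2, and Slc18a2 had no spread left. Their own diet differences were small for Slc18a2 (-0.02 SDs) and Ctsb (-0.41 SDs), and -1.16 SDs for Antxr2, lower in 50 of 64 pairs. The most opposed were AU020206 (-0.82), Hadhb (-0.81), whose product carries out late steps of mitochondrial fatty acid oxidation, Susd2 (-0.77), the IgE receptor subunit gene Fcer1a (-0.77) and 4930509J09Rik (-0.76). Slc18a2, Susd2, Fcer1a and 4930509J09Rik averaged 5.36, 5.71, 5.4 and 5.3 log2 units, within the range of the bacterial controls (5.16 to 6.01). The other alike and opposed genes averaged from 6.14 (AU020206) to 11.48 (Hadhb). Hadhb ran against Cyp2r1 within each diet, at r = -0.89 with MSE and -0.80 on the normal diet, and was itself 2.15 SDs higher with MSE (limma adjusted p 0.346), or 0.50 SDs after quantile normalization and 0.87 SDs after subtracting array medians. After array medians were subtracted the 5 alike genes had r from 0.44 to 0.70 and the 5 opposed ones turned positive, Hadhb to 0.25.

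Genes next to Cyp2r1 on the chromosome did not pass the test between diets. In RefSeq's gene order the nearest measured genes are Pde3b, a phosphodiesterase gene (0.06 SDs), Psma1, of the proteasome (0.60 SDs), and Copb1, of the COPI coat (-0.64 SDs) on one side, and Calcb, a calcitonin-related peptide gene (0.65 SDs), Insc (-0.88 SDs) and A730082K24Rik (0.21 SDs) on the other. None of the 6 had an unadjusted p under 0.05, and the smallest was 0.0923 for Insc.

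Marker genes of liver cell types were set beside the Cyp2r1 difference. Hepatocyte markers averaged from 10.95 to 14.34 log2 units, with Alb at the top, which fits the labelled tissue, and 4 were higher, 4 lower and 1 equal. Their score, the mean z value of the list's genes per mouse, ran from -0.75 to 0.73 with MSE and from -0.45 to 0.31 on the normal diet. Their larger differences were Tat (-1.05 SDs), Apob (0.97), Apoa1 (0.80) and Cyp2e1 (0.69). Macrophage markers were lower in 9 of 10 (score from -1.14 to 0.92 with MSE and from -0.98 to 1.16 on the normal diet), led by C1qa (-0.90 SDs), Adgre1 (-0.74), Cd5l (-0.43) and Vsig4 (-0.39). Stellate cell markers were higher in 8 of 10 (score from -0.62 to 0.62 with MSE and from -0.70 to 0.49 on the normal diet), led by Des (0.72 SDs), Lrat (0.47), Col1a1 (-0.46) and Reln (0.44). Endothelial markers were also higher in 8 of 10 (score from -0.35 to 0.66 with MSE and from -0.95 to 0.44 on the normal diet), led by Kdr (1.80 SDs), Stab2 (-1.12), Oit3 (1.06) and Ehd3 (0.69). Bile duct markers were higher in 5 of 6 (score from -0.59 to 0.61 with MSE and from -0.38 to 0.23 on the normal diet), led by Tspan8 (1.12 SDs), Cftr (0.31), Sox9 (0.30) and Krt19 (0.11). Neutrophil markers were lower in 6 of 7 (score from -0.77 to 0.27 with MSE and from -0.23 to 0.77 on the normal diet), led by S100a8 (-0.96 SDs), Ngp (-0.71), S100a9 (-0.60) and Mmp8 (-0.60). The scores of every list overlapped between diets. Limma called 0 genes of any list at an adjusted p under 0.05, as for 0% of all genes. An unadjusted p under 0.05 was found for Tat (1 of 9 hepatocyte markers) and Tspan8 (1 of 6 bile duct markers). Among the 10 endothelial markers, Kdr and Oit3 (higher) and Stab2 (lower) also had one. The share over all genes was 6.66%. The part of the marker genes in the Cyp2r1 difference was not tested. Quantile normalization turned 7 macrophage, 3 stellate, 6 endothelial, 4 bile duct, 1 neutrophil and 1 hepatocyte markers, and left 8 hepatocyte markers without spread. Subtracting array medians turned 4 macrophage, 4 neutrophil, 2 hepatocyte, 1 stellate, 1 endothelial and 1 bile duct markers. Bile duct markers averaged from 5.28 to 6.38 log2 units and neutrophil markers from 5.9 to 6.56. Both lists lie partly within the range of the bacterial controls.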

How the data were processed

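Liver RNA of 16 mice was hybridised to 3' arrays after in vitro transcription labelling, per the labels' protocols. The authors deposited log2-like values for 45101 probe sets. They run from 5.05 to 14.6, from which base 2 was inferred; summarization and normalization are not given in the sources used here; R 3.2.2 is named in the submitters' processing notes. The authors' deposited table holds the same values (largest difference 0) and false discovery rates. Platform annotation named 1 gene for 34958 probe sets, several for 932 (unused) and none for 9211. The probe set with the highest mean stood for each of 18194 genes. Limma 3.58.1 in R 4.3.3 (lmFit, eBayes, two-sided, Benjamini-Hochberg, threshold 0.05) compared 8 MSE with 8 normal-diet mice without covariates and was tested on simulated data. Each value is 1 mouse, and the number of mice limits precision.

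The described genes, lists and tests were chosen with earlier results of these data known. Named by rule were the described genes, per list the 4 genes with the largest absolute difference in SDs, the 5 most and least alike genes, and 3 neighbours on each side. List members not named by the annotation used were not analysed here. Permutations were exact. Alternatives were quantile normalization, subtracting array medians, array weights, an intensity trend, the upper part of genes by level, a replicate block, means of probe sets and leaving out mice. The relation with Ppargc1a was added after the data were seen. Python 3.11.15 and matplotlib 3.10.9 were used for the rest.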

Additional observations from a re-analysis of the deposited data

Results flagged for a closer look

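Dixon's test at its 95% critical value set 1 mouse apart in 10 of 134 groups of 8 mice (67 genes named by rule, each in 2 diets); about 1 in 20 groups would do so by chance. The ratio of the mouse's gap to the group's range was 0.527 for Cyp2r1 in normal-diet replicate 2 (low), barely past that value. Cdk2 was low in the same mouse (0.552). It was named because it follows Cyp2r1 over these same mice, so this is no separate sign. The other normal-diet cases were Dab2 (0.551, replicate 7, low), Pdia3 (0.560, replicate 1, low), Cyp2e1 (0.636, replicate 8, low), Des (0.632, replicate 7, high) and Reln (0.639, replicate 4, low). The MSE cases were Kl (0.583, replicate 6, low), Oit3 (0.533, replicate 8, high) and Insc (0.652, replicate 4, low).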

How the results depend on the processing

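Cyp2r1 was lower with MSE under every setting run, from -1.40 SDs after quantile normalization to -5.94 SDs without the farthest mouse of each diet. Leaving out single mice gave -4.67 (normal-diet replicate 2) to -3.24 SDs. Leaving out single mice moved Vdr between 0.01 and 0.43 SDs, Cyp24a1 between 0.08 and 0.72 and Cyp27b1 between 0.10 and 0.59. Limma called 0 genes as deposited. It called 3 after quantile normalization (Bmp7, Gnpda2 and Gp1bb), 1 with the replicate block (Wdr7), 1 in the upper part of genes by level (Cyp2r1) and 0 to 2 without single mice: Cyp2r1 and Ephx2 without normal-diet replicate 2, and Cyp2r1 without MSE replicate 7. Array weights, the intensity trend, means of probe sets and subtracting medians gave 0 calls. Since Cyp2r1 was chosen for its small p, these calls support nothing further. Genes at an unadjusted p under 0.05 numbered 1212 (741 lower, 471 higher), against 230 (73 lower, 157 higher) after subtracting array medians and 795 (266 higher) in the upper part of genes by level, where fewer genes were tested. Quantile normalization gave 780 higher. Genes without overlap between diets numbered 9, against 0 after quantile normalization, 1 after subtracting array medians, 5 in the upper part by level and 10 to 20 without single mice. The correlation of Cyp2r1 with Vdr on the normal diet, -0.76, turned to 0.32 after quantile normalization and 0.50 after subtracting medians. That with Ppargc1a, 0.40 with MSE and -0.63 on the normal diet, became 0.75 and -0.01 after quantile normalization. The causes were not tested. Of the 59 related genes, 25 of 50 with any spread left turned direction after quantile normalization and 22 after subtracting medians. The labels do not say that same-numbered mice are pairs, so the main fit left the numbers out. Deviations of same-numbered mice had r from -0.03 to 0.22, over 0.1 in 5 of 8. Of the MSE mice, 5 of 8 were closest to the normal-diet mouse of their own number, with 8 normal-diet mice to choose from each time. The mouse labels in the authors' deposited table carry other numbers, and these are not the same set in both diets. Whether the numbers mark shared handling was not tested, and these values do not show that they carry none. With the replicate block Cyp2r1 was at -3.59 SDs, and 1614 genes had a limma unadjusted p under 0.05. Probe set brightness near the bacterial controls limits what can be said of Vdr, Cyp24a1 and Cyp27b1, and of other named genes at such levels.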
